A study of Mus musculus with 32 samples.

Results

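The comparison of heart with liver covered 25982 of the 27179 mouse genes in a deposited table of 5-methylcytosine (5mC) signal, the genes with a signal of at least 1 CPM (reads scaled to library size) in at least 2 of the table's 8 columns. Genes near the limit were close to it on both sides, with a second-highest value of 1.02 CPM for 2610306M01Rik, which was kept, and 0.993 CPM for Defa36, which was not. The assay was MeDIP-seq, in which single-stranded genomic DNA is captured through an antibody to 5mC and sequenced. The compared groups were heart kept frozen, heart kept as FFPE tissue (fixed in 10% formalin, then set in paraffin), and liver kept in each of these ways, with brain and kidney in the same fit. The labels give no strain, age, sex, genotype or treatment of the mice beyond the way the organs were kept, and all groups were whole organs. The table has 1 column for each organ and preservation, called a library here. The column names carry neither the antibody nor a replicate number, so they were taken as 5mC from the series type, MeDIP-seq. Whether a column pools the 2 listed samples of its group, which carry 2 library dates, is not given in the sources, and the dates cannot be tied to columns.

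Methylation of cytosine in CG pairs is copied at cell division and differs between cell types mainly at regulatory regions. Genes used by a cell type often carry less 5mC around their starts and enhancers in that cell type, whereas methylation inside gene bodies can accompany transcription. MeDIP signal also follows how many CG pairs a stretch of DNA holds, so a level here is not a share of methylated cytosines. In whole organs, a difference in the share of a cell type and a difference in methylation within cells cannot be told apart. The signal is not expression, so markers of heart or liver cells do not check the organ labels.

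The summed reads were 2641841 in frozen heart, 2386266 in FFPE heart, 3699218 in frozen liver and 3102535 in FFPE liver, and the median tested gene had 44 to 59 reads in these libraries. Liver values were more spread out than heart values, with an SD over tested genes of 2.49 (frozen) and 2.60 (FFPE) on the log2 scale in liver against 1.99 and 2.24 in heart. Heart minus liver differences are log2 differences of CPM from limma's moderated test, given with their standard error (SE), and a gene is said to be called where the Benjamini-Hochberg adjusted p over all tested genes was under 0.05. Each organ had 1 frozen and 1 FFPE library (n = 2). The scatter left once organ and preservation are accounted for was pooled over the 4 organs. The moderated test then drew it toward that of genes with similar signal, with 3 residual and 13.1 prior degrees of freedom. The SE thus leans more on those genes than on the spread of the gene's own libraries.

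The promoters of 4 of the genes that differed most between the organs, and of the hepatocyte gene Alb and the heart muscle gene Myh6, are shown as examples. They do not show whether CG content goes with the direction of the difference. Each is the first window that RefSeq (GRCm38.p6) lists for the gene, from 250 bases before to 50 bases after its start, read 5′ to 3′ on the gene's strand with every CG in capitals. CG reads the same on both strands. The windows lie at chr10:127351799-127352098 on the minus strand (Inhbe), chr13:77708440-77708739 on the plus strand (Fam172a), chr11:3983386-3983685 on the plus strand (Gal3st1), chr9:21248394-21248693 on the minus strand (S1pr5), chr5:90460620-90460919 on the plus strand (Alb) and chr14:54966558-54966857 on the minus strand (Myh6).
Inhbe: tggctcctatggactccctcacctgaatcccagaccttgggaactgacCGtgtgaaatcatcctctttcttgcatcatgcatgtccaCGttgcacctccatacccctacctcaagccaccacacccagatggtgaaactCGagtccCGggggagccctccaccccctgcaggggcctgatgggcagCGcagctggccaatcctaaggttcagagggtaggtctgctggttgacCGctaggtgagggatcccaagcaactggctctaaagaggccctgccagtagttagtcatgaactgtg
Fam172a: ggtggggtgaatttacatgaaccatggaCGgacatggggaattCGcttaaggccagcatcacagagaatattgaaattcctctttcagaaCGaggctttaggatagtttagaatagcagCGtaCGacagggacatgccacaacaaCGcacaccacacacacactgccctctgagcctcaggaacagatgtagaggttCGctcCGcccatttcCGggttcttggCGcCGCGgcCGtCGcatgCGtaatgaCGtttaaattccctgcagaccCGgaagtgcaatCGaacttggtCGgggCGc
Gal3st1: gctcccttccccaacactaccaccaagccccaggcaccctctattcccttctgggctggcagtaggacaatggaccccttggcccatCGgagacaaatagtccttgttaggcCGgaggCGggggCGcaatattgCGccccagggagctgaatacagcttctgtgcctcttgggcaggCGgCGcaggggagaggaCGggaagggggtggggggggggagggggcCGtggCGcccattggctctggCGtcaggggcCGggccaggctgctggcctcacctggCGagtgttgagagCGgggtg
S1pr5: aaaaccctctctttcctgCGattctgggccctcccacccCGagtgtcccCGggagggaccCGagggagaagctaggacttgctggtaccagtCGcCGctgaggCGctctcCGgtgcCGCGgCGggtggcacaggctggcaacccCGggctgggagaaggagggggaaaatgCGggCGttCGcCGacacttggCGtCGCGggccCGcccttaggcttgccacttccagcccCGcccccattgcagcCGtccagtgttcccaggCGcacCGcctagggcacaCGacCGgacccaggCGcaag
Alb: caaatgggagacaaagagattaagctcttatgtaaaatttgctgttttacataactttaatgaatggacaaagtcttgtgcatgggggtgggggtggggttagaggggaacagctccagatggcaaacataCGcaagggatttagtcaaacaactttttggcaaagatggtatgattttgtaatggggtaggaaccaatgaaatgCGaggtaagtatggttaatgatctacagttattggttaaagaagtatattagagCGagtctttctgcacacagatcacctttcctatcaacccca
Myh6: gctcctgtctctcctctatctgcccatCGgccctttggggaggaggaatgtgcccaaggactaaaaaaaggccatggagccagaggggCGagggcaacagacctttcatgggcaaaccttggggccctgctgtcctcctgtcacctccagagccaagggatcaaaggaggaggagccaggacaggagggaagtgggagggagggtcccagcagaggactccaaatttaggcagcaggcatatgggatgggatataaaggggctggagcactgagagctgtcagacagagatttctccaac

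These windows hold 6 CG pairs for Inhbe, 20 for Fam172a, 14 for Gal3st1, 27 for S1pr5, 3 for Alb and 2 for Myh6. Of the 18257 tested genes with a window, 20.2% held as many as S1pr5 or more, 35.8% as many as Fam172a or more, 48.8% as many as Gal3st1 or more, 67.1% as many as Inhbe or more, 81.3% as many as Alb or more and 88.0% as many as Myh6 or more. The quartiles over these 18257 genes were 4 and 24 CG pairs. Alb, higher in heart, and Myh6, lower in heart, thus lay below the lower quartile, and S1pr5, lower, above the upper. Inhbe and Fam172a, higher, and Gal3st1, lower, lay between the quartiles. The counted signal covers a gene as the authors counted it, which is not given as exons or gene body, and is not the signal of these windows. A comparison of CG content between called and other genes is void, since 70.3% of tested genes have a window.

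More genes were called lower than higher in heart, although over all tested genes 15018 differences lay above 0 and 10964 below. In limma's test 856 genes were called higher in heart (3.29% of those tested) and 2277 lower (8.76%), together 12.1%. The median difference was 1.44 among the genes called higher (1.43 with the 20 genes without a liver read set at their bound) and -0.99 among those called lower, against 0.16 over all tested genes. A difference of 2-fold or more was found for 81.2% of the genes called higher and 48.7% of those called lower. Scaling moved this balance: the share of higher genes among the called was 27.3% as deposited, 42.7% after quantile normalization (662 higher, 888 lower) and 12.5% after centring each library on its median (527 higher, 3683 lower). The median of all genes moved from 0.16 to 0.04 and -0.05 under these scalings. The calls also rest on letting the variance follow the signal level: without that trend limma called 0 genes in either direction, and 5594 had an unadjusted p under 0.05. Without frozen heart 54 genes were called higher and 569 lower, without FFPE heart 55 and 876, without frozen liver 410 and 970, and without FFPE liver 226 and 751. Without FFPE and frozen kidney 2202 and 2213 genes were called higher, and 583 and 580 without FFPE and frozen brain.

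The direction of the difference followed the mean signal of a gene. Tested genes were ranked by mean log2 CPM over the 8 libraries and divided into 10 groups of about equal size. In the group with the lowest mean signal the median difference was 0.78 and 0.0385% were called lower. In the group with the highest signal the median was -0.46 and 40.6% were called lower. After quantile normalization the medians of the 10 groups lay between -0.05 and 0.05. The spread of liver values given above moves with this pattern, and its part in single calls was not tested.

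**Figure D1:**
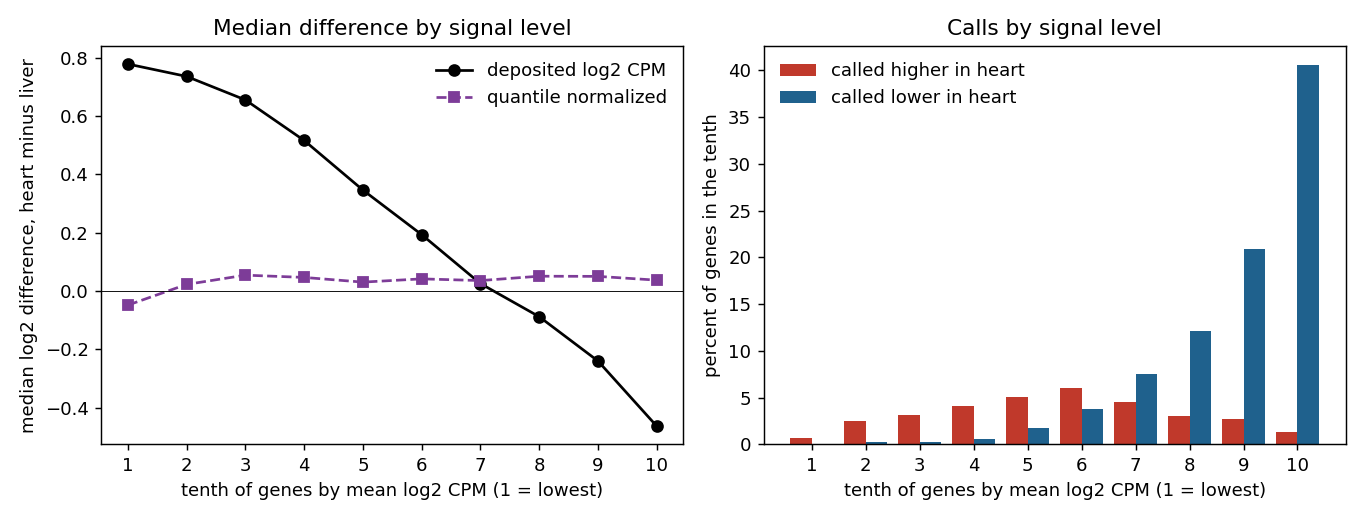
Left, median log2 difference of heart minus liver in each of 10 groups of genes ranked by mean log2 CPM over 8 libraries, as deposited (black) and after quantile normalization (purple). Right, percent of each group called higher (red) or lower (blue) in heart, where the lower calls reach 40.6% in the group with the highest signal.

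Liver was the organ set apart at most called genes. Both liver libraries lay below all 6 others at 607 of the 856 genes called higher in heart (70.9%), against 10.3% of all tested genes, while both heart libraries lay above all 6 others at 172 of them (20.1%), against 4.78%. Among the 2277 genes called lower in heart, liver lay above all 6 others at 1581 (69.4%, against 11.7%) and heart below all 6 others at 395 (17.3%, against 3.47%). Since the calls use the same libraries, these counts describe the called genes and are no test. Against the mean of brain and kidney, limma called 4 genes higher (0.0154%) and 28 lower (0.108%) in heart, and 2765 higher (10.6%) and 1832 lower (7.05%) in liver, comparisons that share the brain and kidney libraries.

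Inhbe, Fam172a and Stard10 had the largest higher signals in heart. The ranking here and below is among called genes with a mean signal at or above the median, no overlap between heart and liver, and a symbol that is not a predicted model, small RNA or pseudogene. Inhbe (chr10:127349402-127351848), which encodes the activin E chain made by liver, had 29.3 CPM in frozen heart, 43.1 in FFPE heart, 6.57 in frozen liver and 4.73 in FFPE liver. Both heart values were above both liver values, and brain and kidney lay with heart at 21.1 to 31.5 CPM. Its difference was 2.67 ± 0.37 (SE), or 6.37-fold (limma adjusted p = 0.000299).

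Fam172a (chr13:77708677-78166240) had 43.7 and 53.0 CPM in frozen and FFPE heart against 6.57 and 14.6 in frozen and FFPE liver. Heart was 4.92-fold higher (2.30 ± 0.31 SE, limma adjusted p = 0.00028), while brain and kidney, at 54.8 to 99.7 CPM, lay above both organs. Pou5f2 and other genes lie within its coordinates, so their reads cannot be assigned with certainty. Stard10 (chr7:101317086-101346626), a phospholipid transfer protein, had 39.1 and 42.7 CPM in heart and 11.5 and 6.63 in liver, with brain and kidney between them at 19.4 to 26.0 CPM. Heart and liver thus stood on opposite sides of the other organs there, and heart was 4.67-fold higher than liver (2.22 ± 0.36 SE, limma adjusted p = 0.000848).

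The other 11 of the 14 genes reported here with the largest higher signal had differences of 1.79 to 2.19. They were Tmem30b (a subunit of phospholipid flippases), Itih3 (a heavy chain of a plasma protease inhibitor), Gpr108, Glyctk (glycerate kinase), Osgin1 (an oxidative stress response gene), Mafg (a small Maf transcription factor), Eif1a (a translation initiation factor), Camk1g (a calmodulin-dependent kinase), Rab36 (a small GTPase), Gab2 (a signalling adaptor) and Aqp9, the glycerol and urea channel of hepatocytes. Over these 14 genes, frozen heart had 29.3 to 55.6 CPM, FFPE heart 26.4 to 56.2, frozen liver 6.57 to 22.6 and FFPE liver 4.36 to 15.3. Liver lay below all 6 other libraries at 13 of the 14, all but Gab2, against 10.3% of all tested genes. As the genes were ranked by the heart minus liver difference, this count is no test. Gpr108 overlaps Trip10. Leaving out a single heart or liver library ended the call of Stard10 (adjusted p = 0.0508 without FFPE heart), Itih3 (0.0788 without frozen heart), Glyctk (0.0853 without FFPE heart and 0.0721 without FFPE liver), Eif1a (0.0525 and 0.0581 without FFPE and frozen heart), Camk1g (0.055, 0.0804 and 0.0534 without FFPE heart, frozen heart and FFPE liver), Rab36 (0.0534 and 0.0566 without FFPE heart and FFPE liver), Aqp9 (0.0993 without frozen heart) and Gab2 (0.316, 0.213 and 0.64 without FFPE heart, frozen heart and FFPE liver). Gab2 was also not called after quantile normalization (limma adjusted p = 0.0671).

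**Figure D2:**
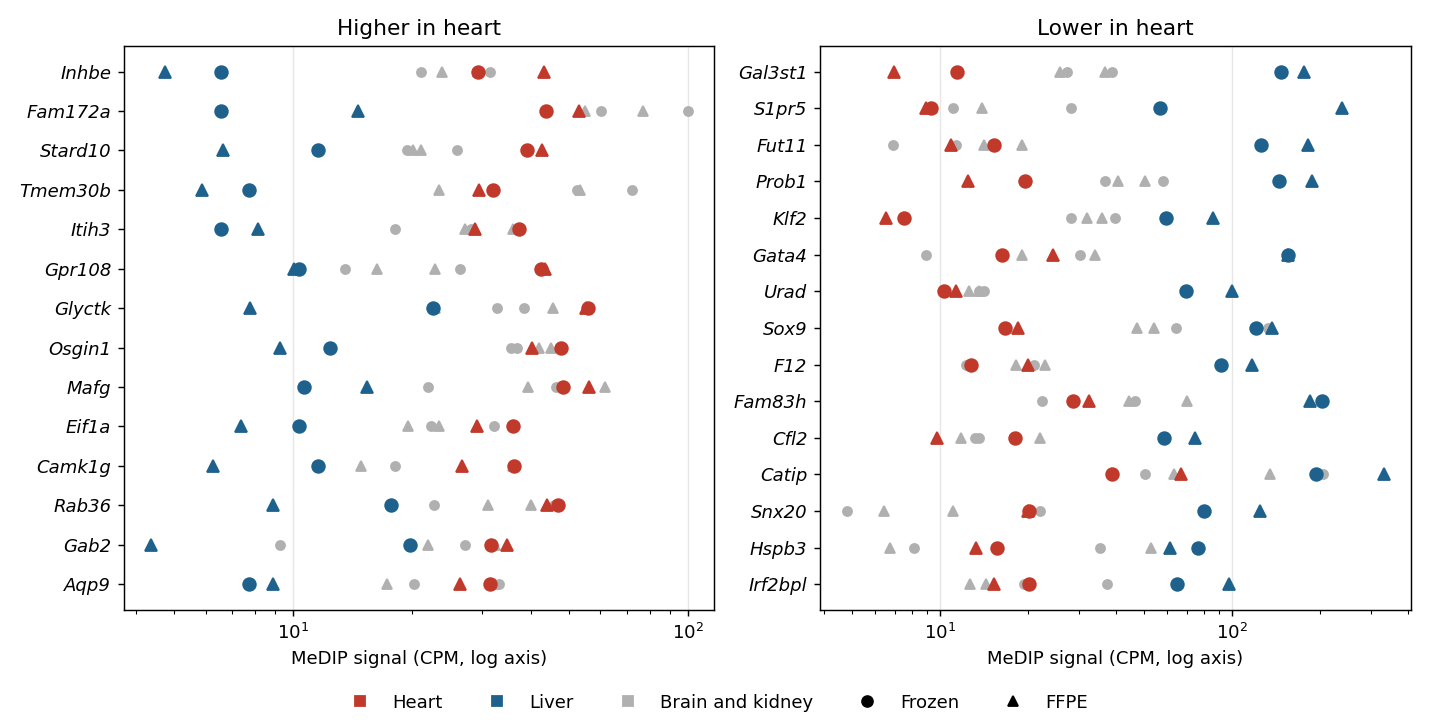
MeDIP signal in CPM (log axis) of 14 genes with the largest higher (left) and 15 with the largest lower (right) signal in heart, 1 point for each of 8 libraries, circles for frozen and triangles for FFPE tissue. Heart (red) and liver (blue) do not overlap at any of them, which was a condition for choosing the genes. Liver lies below all 6 other libraries at 13 of 14 genes on the left (10.3% of all tested genes). On the right it lies above them at 13 of 15 (11.7%).

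The largest lower signals in heart were larger in size, up to 18.1-fold. Gal3st1 (chr11:3983636-3999328), the sulfotransferase that makes sulfatide lipids, had 11.4 CPM in frozen heart, 6.95 in FFPE heart, 148 in frozen liver and 176 in FFPE liver. Brain and kidney lay between the 2 organs at 25.8 to 39.0 CPM, so that heart was the lowest and liver the highest of all libraries. The difference was -4.18 ± 0.31 (SE, limma adjusted p = 5.25e-06).

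S1pr5 (chr9:21242917-21248443), a receptor for sphingosine-1-phosphate, had 9.30 and 8.93 CPM in frozen and FFPE heart and 56.8 and 239 CPM in frozen and FFPE liver. Liver was the high organ in both preservations but its 2 libraries differed widely, and the difference was -3.68 ± 0.52 (SE, limma adjusted p = 0.00032). Fut11 (chr14:20694968-20700197), of the fucosyltransferase family, had 15.3 and 10.9 CPM in heart and 126 and 182 CPM in liver. Heart lay within the range of brain and kidney there, at 6.88 to 19.14 CPM, and the difference was -3.55 ± 0.37 (SE, limma adjusted p = 5.27e-05).

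Klf2 (chr8:72319062-72321654), a transcription factor of endothelium under flow, had 7.55 and 6.55 CPM in frozen and FFPE heart, 59.4 and 86.2 CPM in liver and 28.1 to 39.6 CPM in brain and kidney. The heart minus liver difference was -3.35 ± 0.31 (SE, limma adjusted p = 4.33e-05), with heart -2.26 against the mean of brain and kidney (adjusted p = 0.00684) and liver 1.09 above it (adjusted p = 0.0108). Sox9, a transcription factor of cartilage and bile duct cells, likewise had 16.7 and 18.5 CPM in heart against 47.3 to 133 CPM in brain and kidney and 121 and 137 CPM in liver.

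The remaining 10 of these 15 genes were Prob1, Gata4, Urad (an enzyme of uric acid breakdown), F12 (coagulation factor XII), Fam83h, Cfl2 (the cofilin of muscle), Catip, Snx20 (a sorting nexin), Hspb3 (a small heat shock protein of muscle) and Irf2bpl. Across the 15 genes, the heart libraries had 6.55 to 66.9 CPM and the liver libraries 56.8 to 331 CPM. Liver lay above all 6 others at 13 of the 15, against 11.7% of all tested genes, and heart below all 6 others at 6, against 3.47%. These counts too come from genes ranked by the heart minus liver difference and are no test. Against the mean of brain and kidney, limma called liver at all 15 and heart at 4, namely Gal3st1, Prob1, Klf2 and Sox9. The call of Cfl2 was lost without FFPE heart (adjusted p = 0.0555) or FFPE liver (0.0534), and without FFPE liver so were those of Snx20 (0.0783) and Irf2bpl (0.0857). Fam83h overlaps Iqank1.

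Genes of the heart muscle sarcomere, the contractile unit of striated muscle, had lower signal in heart. Of 30 sarcomere genes tested, 12 were called lower and 1 higher, against 8.76% and 3.29% of all tested genes. The median difference of the list was -0.65 (-0.72 in frozen and -0.60 in FFPE tissue), against 0.16 over all tested genes. Quantile normalization left the median at -0.55, with 6 genes called lower and none higher. Both heart libraries were below all 6 others at 14 of the 30 genes, against 3.47% of all tested genes. Fewer were called with a library left out: 3 without frozen heart, 4 without FFPE heart and 6 without either liver library.

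Myh6 (chr14:54941921-54968017), the myosin heavy chain of adult mouse heart, had 105 CPM in frozen heart, 117 in FFPE heart, 197 in frozen liver and 218 in FFPE liver. Heart was the lowest organ, since brain and kidney had 161 to 229 CPM, and liver did not stand apart from them. The difference was -0.90 ± 0.16 (SE, limma adjusted p = 0.00188) and was -0.36 (adjusted p = 0.242) after quantile normalization. Cmtm5 overlaps Myh6.

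Xirp1, an actin-binding protein of the intercalated disc, had 63.0 and 76.4 CPM in frozen and FFPE heart, 137 and 159 CPM in liver and 108 to 123 CPM in brain and kidney. Heart was again the low organ, with a difference of -1.09 ± 0.17 (SE, limma adjusted p = 0.000737). Ankrd1, a stress-responsive repeat protein of cardiomyocytes, differed by -1.45 and the fetal and slow myosin heavy chain Myh7 by -0.96. After quantile normalization the Myh7 difference was -0.50 and was not called (limma adjusted p = 0.11). Titin (Ttn), the longest of these genes, had 2194 and 2579 CPM in heart and 4810 and 4924 CPM in liver (-1.03 ± 0.20 SE, limma adjusted p = 0.00321). The atrial light chain Myl7 was the 1 sarcomere gene called higher, with 7.55 and 6.95 CPM in heart and 1.31 and 1.33 CPM in liver (2.46 ± 0.74 SE, limma adjusted p = 0.0412), on 4 and 3 liver reads. Ttn and Myl7 were chosen after their values were seen. Myl7 was not called after quantile normalization (limma adjusted p = 0.197), while Xirp1, Ankrd1 and Ttn kept their calls. Calls were lost without 1 library for Myh6 (adjusted p = 0.0527 without FFPE heart), Ankrd1 (0.0647 without frozen heart), Myh7 (0.087 without FFPE heart), Ttn (0.0894 and 0.129 without FFPE and frozen heart) and Myl7 (0.0733 and 0.0808 without FFPE and frozen brain, 0.348 and 0.198 without FFPE and frozen heart, 0.0906 and 0.21 without FFPE and frozen liver).

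Among genes of cardiac energy supply and hormones, 6 of 25 were called lower and none higher, with a median of -0.52 that was -0.56 after quantile normalization, with 3 called lower. Hspb3 had 15.6 and 13.3 CPM in frozen and FFPE heart against 76.4 and 61.2 CPM in liver, a difference of -2.25 ± 0.33 (SE, limma adjusted p = 0.000451). Among genes of calcium handling and conduction, 4 of 30 were called lower and 1 higher, not far from the 8.76% and 3.29% of all tested genes, and their median of -0.22 became 0.01 after quantile normalization. Gja1, the main gap junction protein of ventricular muscle, had 45.5 and 52.6 CPM in heart and 139 and 117 CPM in liver (-1.38 ± 0.24 SE, limma adjusted p = 0.00146), and its adjusted p was 0.0554 without frozen liver. Without frozen heart, FFPE heart, frozen liver and FFPE liver, the energy list had 1, 3, 2 and 2 lower calls and the calcium list 2, 1, 1 and 2.

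Of 28 cardiac transcription factor genes 3 were called lower, near the 8.76% of all tested genes, and 3 higher, against 3.29%, with a median of -0.18 that turned to 0.19 after quantile normalization. Gata4 (chr14:63198914-63271712), a zinc finger factor of heart and liver development, had 16.3 CPM in frozen heart, 24.4 in FFPE heart, 156 in frozen liver and 155 in FFPE liver. Heart lay within brain and kidney (8.96 to 33.9 CPM) and liver alone was high, with a difference of -2.96 ± 0.30 (SE, limma adjusted p = 4.84e-05). Gata6, of the same family, had 20.9 and 31.2 CPM in heart and 60.9 and 70.3 CPM in liver (-1.36 ± 0.25 SE, limma adjusted p = 0.00236, and 0.0817 without frozen heart). Tbx18, a factor of the epicardium, was higher in heart with 37.7 and 43.5 CPM against 20.3 and 10.0 CPM in liver (2.84-fold, limma adjusted p = 0.00901, and 0.276 without FFPE heart or 0.133 without FFPE liver). Nkx2-5, a factor that specifies heart muscle, was not called (limma adjusted p = 0.102), with 5 reads in frozen heart, 6 in FFPE heart and 0 in both liver libraries. With 3 reads put in for each liver count of 0 and the heart counts taken as exact, heart was 2.05-fold higher there. This value leaves out the counting error of the 5 and 6 heart reads. Without frozen heart, FFPE heart, frozen liver and FFPE liver the cardiac transcription factors had 3, 0, 2 and 1 higher and 1, 2, 3 and 2 lower calls.

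Genes of plasma proteins, which hepatocytes make and secrete, had higher signal in heart. Of 36 tested, 15 were called higher and none lower, against 3.29% and 8.76% of all tested genes. The median difference of the plasma protein genes was 1.24 (1.18 with the gene without a read in one organ at its bound), against 0.16 over all tested genes. It was 1.26 in frozen and 0.91 in FFPE tissue. Their median mean signal was 3.55 on the log2 scale, and the signal group from 2.91 to 3.63 had a median difference of 0.52. Both liver libraries were below all 6 others at 21 of the 36, against 10.3% of all tested genes, and heart stood above all 6 others at 1. Without frozen heart, FFPE heart and frozen liver 3, 3 and 4 were called, and 9 were called after quantile normalization, with a median of 0.92.

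Alb (chr5:90460870-90476602), serum albumin, had 21.9 CPM in frozen heart, 20.4 in FFPE heart, 5.99 in frozen liver and 8.52 in FFPE liver. Liver was the lowest organ, with 22.0 to 44.5 CPM in brain and kidney, and heart was 2.96-fold above liver (1.57 ± 0.38 SE, limma adjusted p = 0.0133). This call was lost after quantile normalization (adjusted p = 0.0683) and without FFPE heart (0.161), frozen heart (0.13) or frozen liver (0.166). Hpx (chr7:105591611-105600116), the haem carrier hemopexin, had 24.4 and 16.9 CPM in frozen and FFPE heart and 5.40 and 1.33 CPM in liver, the latter 18 and 3 reads. Heart was higher by 2.92 ± 0.52 (SE, limma adjusted p = 0.00172, and 0.0581 without FFPE heart).

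Itih3 (chr14:30908572-30923787) had 37.4 and 28.8 CPM in frozen and FFPE heart and 6.57 and 8.14 CPM in liver, where liver alone stood apart (2.16 ± 0.36 SE, limma adjusted p = 0.00102, and 0.0788 without frozen heart). Ahsg (fetuin A) had a difference of 2.40 and Trf (transferrin, the iron carrier) one of 1.22. Trf had 51.4 and 63.7 CPM in heart and 21.5 and 28.2 CPM in liver, so the groups did not overlap. The call of Ahsg was lost without frozen heart (adjusted p = 0.108), and that of Trf without FFPE heart (0.0788) or frozen liver (0.0533).

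**Figure D3:**
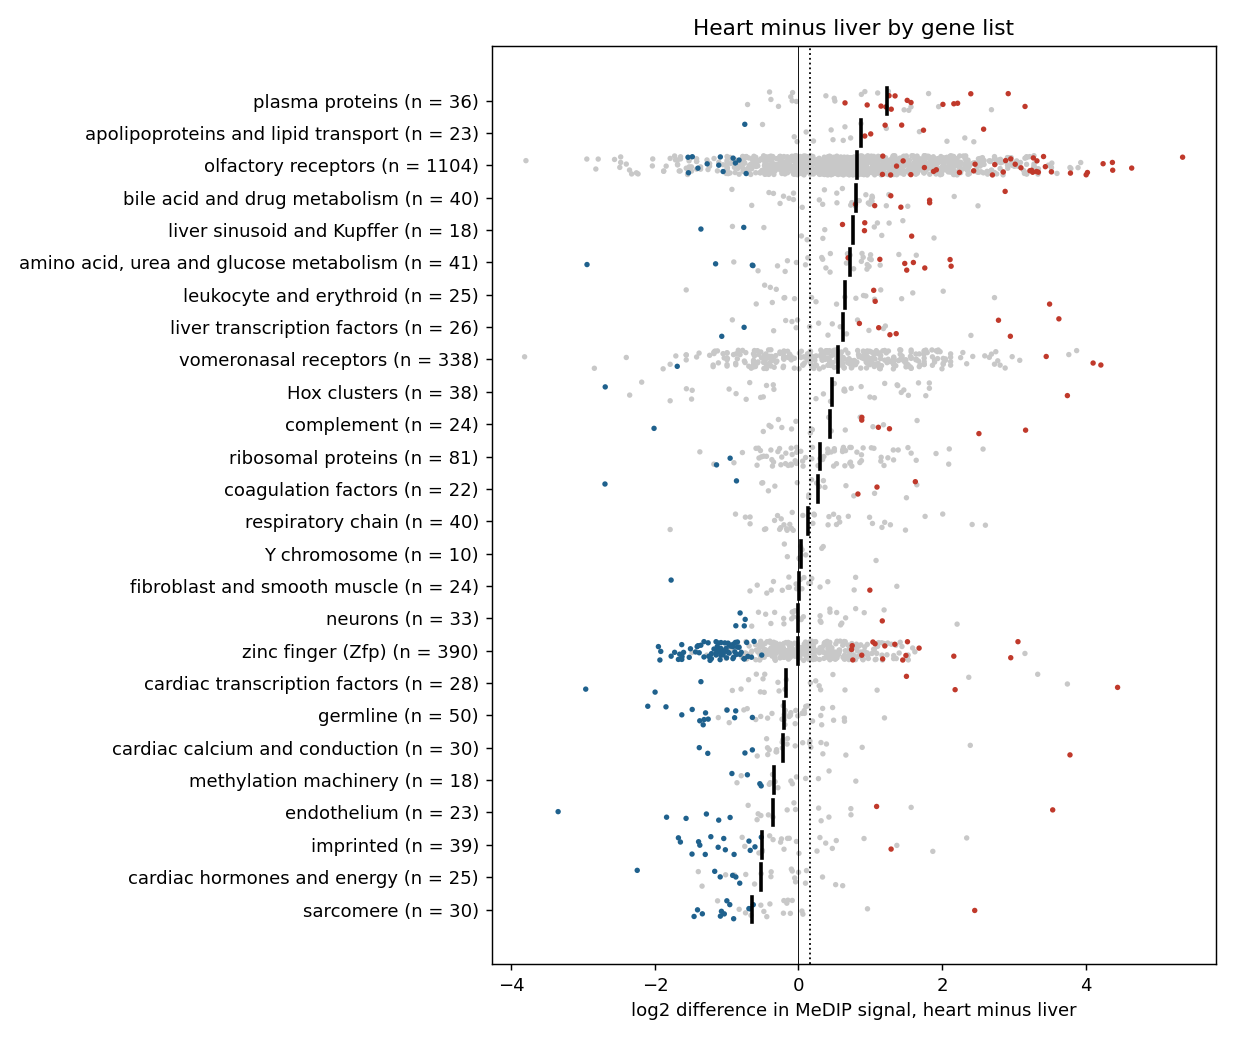
Log2 difference of heart minus liver for every tested member of 26 gene lists (red called higher, blue called lower, grey not called), with the median of each list as a black bar and that of all tested genes (0.16) as a dotted line. Plasma proteins lie highest (median 1.24) and the sarcomere lowest (-0.65).

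Of 22 clotting genes 3 were called higher and 2 lower, against 3.29% and 8.76% of all tested genes, so that the lower calls were near that share, and the median was 0.27. Fga (chr3:83026153-83033627), the alpha chain of fibrinogen, had 58.1 CPM in frozen heart, 79.6 in FFPE heart, 21.5 in frozen liver and 22.5 in FFPE liver. Liver was lowest by far, since brain and kidney had 80.3 to 90.9 CPM, and the difference of 1.63 ± 0.21 (SE, limma adjusted p = 0.000205) kept its call without any 1 library and under both other scalings. F12, in contrast, had 12.8 and 20.1 CPM in heart and 91.6 and 118 CPM in liver, with liver above every other library (-2.69 ± 0.29 SE, limma adjusted p = 6.73e-05). Without either heart library 1 was called higher, and without any single heart or liver library 1 was called lower.

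Of 23 genes of lipid transport 6 were called higher and 1 lower (median 0.87), and of 24 complement genes 6 were called higher and 1 lower (median 0.44), against 3.29% and 8.76% of all tested genes. Apob, the structural protein of VLDL and LDL particles, had 84.4 and 72.1 CPM in frozen and FFPE heart against 25.9 and 44.1 CPM in liver (1.21 ± 0.24 SE, limma adjusted p = 0.0032). The lipid gene called lower was Pltp, a phospholipid transfer protein chosen after its values were seen, with 33.5 and 33.6 CPM in heart and 57.1 and 55.5 CPM in liver (adjusted p = 0.0484). Cfb, complement factor B, had 32.8 and 20.1 CPM in heart and 3.94 and 5.11 CPM in liver (2.51 ± 0.44 SE, limma adjusted p = 0.00149). C3, the central complement protein, had 73.9 and 93.9 CPM in heart and 38.1 and 53.6 CPM in liver (0.88 ± 0.20 SE), without overlap. Calls were lost without frozen heart for Apob (adjusted p = 0.134), Pltp (0.265), Cfb (0.103) and C3 (0.0935), without FFPE heart for Pltp (0.26) and C3 (0.142), without frozen liver for Apob (0.0915), Pltp (0.218) and C3 (0.118), without FFPE liver for Pltp (0.203), and without FFPE or frozen brain for Pltp (0.0617 and 0.0603). Without frozen heart, FFPE heart, frozen liver and FFPE liver, 1, 1, 2 and 2 lipid genes and 0, 1, 1 and 4 complement genes were called higher. The complement gene called lower, C1qb of the first complement component, lost its call without any of these 4 libraries.

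Enzymes of bile acid and drug metabolism were called higher at 7 of 40 genes and lower at none. Over all tested genes the shares were 3.29% and 8.76%. The median of the list was 0.81 against 0.16 over all tested genes, and 0.44 after quantile normalization, with 5 called higher. Its median mean signal was 3.78 on the log2 scale, and the signal group from 3.63 to 4.21 had a median difference of 0.35. Cyp8b1, the sterol 12-hydroxylase of bile acid synthesis, had 40.2 and 54.2 CPM in frozen and FFPE heart and 19.13 CPM in both liver libraries (1.29 ± 0.24 SE, limma adjusted p = 0.00273). Cyp7a1, which catalyses the limiting step from cholesterol to bile acids, had 36.7 and 27.99 CPM in heart and 9.49 and 15.0 CPM in liver (1.43 ± 0.34 SE, limma adjusted p = 0.0117). Liver was the lowest organ at both genes. Without 1 library Cyp8b1 had adjusted p = 0.075 (FFPE heart), 0.0506 (frozen heart) and 0.0631 (FFPE liver), and Cyp7a1 0.0546 (FFPE heart), 0.238 (frozen heart) and 0.161 (frozen liver). The list had 0, 1, 4 and 3 calls without frozen heart, FFPE heart, frozen liver and FFPE liver.

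In the metabolism of amino acids, urea and glucose, 8 of 41 genes were called higher and 4 lower, with a median of 0.72. Over all tested genes 3.29% were called higher and 8.76% lower, so the lower calls were near that share. Pck1, which makes phosphoenolpyruvate for glucose synthesis, had 72.5 CPM in frozen heart, 74.4 in FFPE heart, 19.7 in frozen liver and 29.7 in FFPE liver. The difference was 1.60 ± 0.24 (SE, limma adjusted p = 0.000555) with heart and brain alike high and kidney between at 37.6 and 45.7 CPM. Urad had 10.4 and 11.3 CPM in heart and 69.4 and 100 CPM in liver, the largest lower difference of the list. Without FFPE heart, frozen heart, FFPE liver and frozen liver the list had 1, 2, 2 and 2 higher calls and 1, 1, 1 and 2 lower calls. After quantile normalization 3 were called higher and 2 lower.

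Liver transcription factor genes were called higher at 7 of 26 and lower at 2, with a median of 0.63. The shares over all tested genes were 3.29% and 8.76%, so the lower calls were near theirs. Rxra, the partner receptor of many nuclear receptors, had 74.9 and 64.5 CPM in frozen and FFPE heart and 25.3 and 29.0 CPM in liver (1.36 ± 0.23 SE, limma adjusted p = 0.00107, and 0.075 without frozen heart). Hnf4a, a master regulator of hepatocytes, had 76.0 and 61.3 CPM in heart and 32.3 and 44.5 CPM in liver, without overlap. Its difference of 0.85 ± 0.27 (SE) was at the threshold (limma adjusted p = 0.0484), and the adjusted p was 0.0532 and 0.0516 without FFPE and frozen brain, 0.158 and 0.403 without FFPE and frozen heart, and 0.0631 and 0.41 without FFPE and frozen liver. The list had 2 higher calls after quantile normalization, and 0, 1, 3 and 2 without frozen heart, FFPE heart, frozen liver and FFPE liver.

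Genes of cell types other than cardiomyocytes and hepatocytes were called in both directions in each list here, except leukocyte and erythroid genes. Of 23 endothelial genes 6 were called lower in heart and 2 higher, with a median of -0.35 that was -0.05 after quantile normalization. Cdh5, the cadherin of endothelial junctions, had 59.5 and 68.5 CPM in frozen and FFPE heart, 128 and 149 CPM in liver and 99.6 to 121 CPM in brain and kidney, so heart was the low organ (-1.11 ± 0.19 SE, limma adjusted p = 0.00114, and 0.0561 without frozen heart). Flt4, the receptor VEGFR3 of lymphatic and sinusoidal endothelium, was higher with 96.3 and 98.3 CPM against 43.7 and 47.9 CPM in liver (1.09 ± 0.22 SE, limma adjusted p = 0.0038, and 0.108 without frozen heart or 0.0563 without FFPE liver), and was chosen after its values were seen. Of 18 genes of liver sinusoid and Kupffer cells, the resident macrophages of liver, 4 were called higher and 2 lower. Of 25 leukocyte and erythroid genes 3 were called higher and none lower, of 24 fibroblast and smooth muscle genes 1 in each direction, and of 33 neuronal genes 4 were called lower and 1 higher. With 8.76% of all tested genes called lower and 3.29% higher, the neuronal and fibroblast counts were near or below those shares. Vim, vimentin, was the fibroblast gene called lower, with 11.8 and 9.33 CPM in heart and 34.0 and 37.7 CPM in liver (-1.77 ± 0.33 SE, limma adjusted p = 0.00254, and 0.0764 without FFPE liver). Without frozen heart 2 endothelial genes were called lower, and without frozen liver 3. With either heart library left out no sinusoid, Kupffer, leukocyte or erythroid gene was called higher, nor was a sinusoid or Kupffer gene without FFPE liver. Neuronal genes called lower numbered 0, 2, 1 and 2 without frozen heart, FFPE heart, frozen liver and FFPE liver, and 0 after quantile normalization.

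Imprinted genes carry methylation on 1 parental copy at their control regions. Of 39 tested, 15 were called lower in heart, 1 higher and 23 not called, against 8.76% lower and 3.29% higher over all tested genes, with a median of -0.50 (-0.54 in frozen and -0.45 in FFPE tissue) that was -0.09 after quantile normalization, with 7 called lower and 3 higher. Their median mean signal was 6.14 on the log2 scale. In the signal group from 5.77 to 6.40 the median difference was -0.24 and 20.9% were called lower. Liver was above all 6 others at 11 of the 39 imprinted genes, against 11.7% of all tested genes. Counts fell to 7 without frozen heart and to 9 without either liver library.

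Cdkn1c (chr7:143458339-143461059), a maternally expressed inhibitor of the cell cycle, had 33.5 CPM in frozen heart, 43.9 in FFPE heart, 110 in frozen liver and 136 in FFPE liver. Heart was lowest and liver highest of all libraries, with brain and kidney at 54.2 to 95.2 CPM, and the difference was -1.67 ± 0.20 (SE, limma adjusted p = 0.000136). Gnas (chr2:174284320-174346744), a complex locus of the stimulatory G protein that overlaps Gnasas1, had 130 and 167 CPM in frozen and FFPE heart and 401 and 528 CPM in liver. Frozen kidney, at 438 CPM, lay within the liver range, so the high signal there was not in liver alone (-1.64 ± 0.22 SE, limma adjusted p = 0.00028). Peg13 (overlapping Trappc9) and Nap1l5 (overlapping Herc3), both paternally expressed, differed by -1.39 and -1.48. The 1 gene called higher as deposited was the growth factor gene Igf2, chosen after its values were seen, with 40.2 and 30.4 CPM in heart and 17.1 and 11.9 CPM in liver (1.29 ± 0.30 SE, limma adjusted p = 0.00989). Its call was lost without FFPE heart (adjusted p = 0.0905), frozen heart (0.171) or FFPE liver (0.113).

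Germline genes, which carry promoter methylation in many body tissues, were called lower at 13 of 50 and higher at none. Over all tested genes the shares were 8.76% and 3.29%. The median of the list was -0.20, and -0.24 after quantile normalization. Both heart libraries lay below all 6 others at 16 of the 50, against 3.47% of all tested genes. Zfp42 (chr8:43295067-43307009), the pluripotency factor REX1, had 63.0 CPM in frozen heart, 70.9 in FFPE heart, 203 in frozen liver and 210 in FFPE liver. Heart was again lowest and liver highest, with 86.9 to 138 CPM in brain and kidney (-1.62 ± 0.17 SE, limma adjusted p = 5.27e-05). Dazl, which binds RNA in germ cells, had 24.4 and 29.6 CPM in heart, 73.8 and 126 CPM in liver and 59.8 to 106 CPM in brain and kidney, so heart alone stood apart (-1.85 ± 0.26 SE, limma adjusted p = 0.000361). Rhox13 and Fkbp6, expressed in testis, differed by -1.48 and -1.33. Without frozen heart, FFPE heart and FFPE liver 4, 8 and 7 germline genes were called lower.

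Among the genes that write, read or remove DNA methylation, 4 of 18 were called lower and none higher. Over all tested genes the shares were 8.76% and 3.29%. The median mean signal of the list was 6.16 on the log2 scale. In the signal group from 5.77 to 6.40, 20.9% of genes were called lower, so the lower calls were near that share. The median difference of -0.34 turned to 0.10 after quantile normalization and no call was left. Tet3, which oxidises 5mC, had 240 and 237 CPM in frozen and FFPE heart and 344 and 348 CPM in liver (-0.54 ± 0.16 SE, limma adjusted p = 0.039). Its difference was 0.12 after quantile normalization, and that of Tet1 went from -0.52 to 0.13. The 4 calls were also reduced to 0 without either heart library and to 1 without either liver library. The adjusted p of Tet3 was 0.361 and 0.16 without FFPE and frozen heart and 0.131 and 0.246 without FFPE and frozen liver, and that of Tet1 was 0.0524 and 0.0503 without FFPE and frozen brain, 0.225 and 0.329 without FFPE and frozen heart, and 0.0828 and 0.353 without FFPE and frozen liver.

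Large gene families had calls in both directions. Of 390 Zfp zinc finger genes, many of them repressors bound to repeats, 69 were called lower (8.76% over all tested genes) and 16 higher (3.29%) around a median of -0.01 (0.06 after quantile normalization, with 30 lower and 16 higher). Zfp13 (chr17:23569846-23599755) had 87.6 and 95.5 CPM in frozen and FFPE heart, as in brain (85.7 and 86.2 CPM), against 289 and 413 CPM in liver (-1.92 ± 0.18 SE, limma adjusted p = 4.6e-05). Of 1104 olfactory receptor genes, which lie in large clusters and at low signal, 37 were called higher, a share near the 3.29% of all tested genes, and 12 lower, against 8.76%. Their median was 0.82 (0.77 with genes without a read in one organ at their bound). After quantile normalization 5 were higher and 9 lower, with a median of 0.19. The 338 vomeronasal receptor genes had 3 called higher and 1 lower, and their median of 0.56 (0.48 with such bounds) turned to -0.14. Members of both receptor families are near copies of each other, so reads may be shared between them. Vmn2r29 was the vomeronasal gene called lower, with 52.5 CPM in frozen heart and 178 in FFPE heart against 159 in frozen liver and 610 in FFPE liver, so that heart was lower within each preservation while the groups overlapped across them (-1.69 ± 0.19 SE, limma adjusted p = 7.3e-05). Its call was lost without the preservation term (adjusted p = 0.176). Without frozen and FFPE heart 36 and 45 Zfp genes were called lower, and 2 and 0 higher. Of the olfactory genes 0 and 1 were called higher without these libraries, 11 without FFPE liver, 19 and 21 without frozen and FFPE brain, and 147 and 137 without frozen and FFPE kidney.

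Several lists gave few calls, where 8.76% of all tested genes were called lower and 3.29% higher. Of 81 ribosomal protein genes 2 were called lower and none higher, and their median of 0.30 was -0.14 after quantile normalization. Of 40 nuclear genes of the respiratory chain limma called none, with a median of 0.13 that turned to -0.22. Of 38 Hox genes 1 was called in each direction, with a median of 0.47 that turned to -0.17, and no Y chromosome gene of 10 was called.

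The difference could be compared between frozen and FFPE tissue, which share no library. Heart was at least 2-fold higher than liver at 19.6% of tested genes in frozen and 18.4% in FFPE tissue, and at least 2-fold lower at 8.08% and 9.83%. Over all 25982 genes the frozen and FFPE differences had the same sign at 71.2% and a Pearson correlation of 0.37. Over the 12991 genes with a mean signal at or above the median the correlation was 0.72, and over the other 12991 it was 0.18. The points are genes, not replicates, and share depth and gene length. Of the 464 better-covered genes at least 2-fold higher in frozen heart than frozen liver, 422 (90.9%) were also higher in FFPE heart, and of 1261 at least 2-fold lower, 1224 (97.1%) were also lower. Among the lists, 30 of 36 plasma protein genes (83.3%), 22 of 30 sarcomere genes (73.3%) and 32 of 39 imprinted genes (82.1%) had the same sign in both. The sarcomere share was near the 71.2% of all tested genes. It was below the 76.1% of genes with a mean signal at or above the median.

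**Figure D4:**
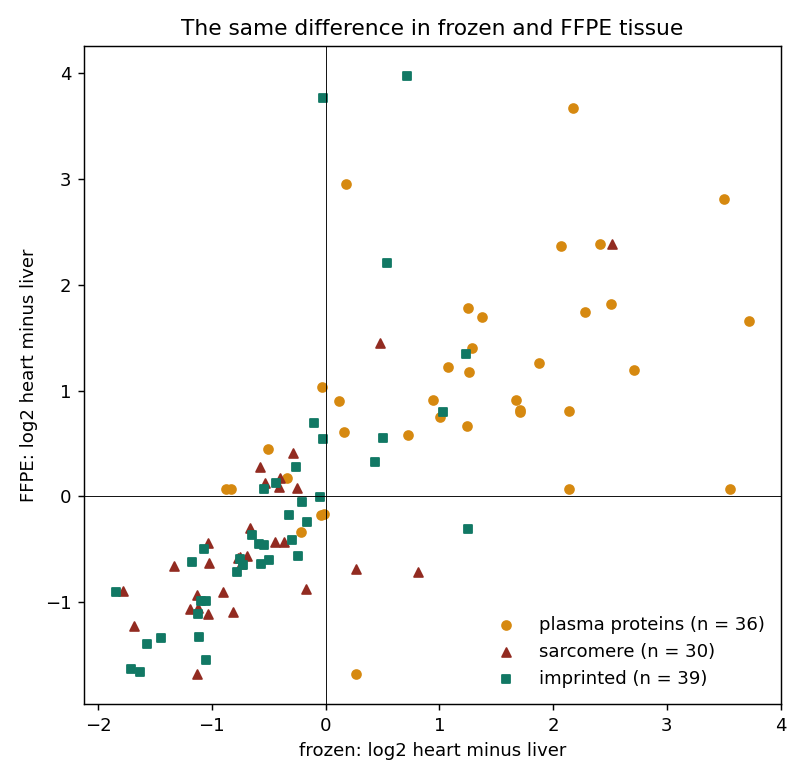
Log2 difference of heart minus liver in frozen tissue (x) and in FFPE tissue (y), 1 point for each tested gene of 3 lists. Plasma protein genes (orange) lie mostly above 0 on both axes, and most sarcomere (red) and imprinted (green) genes lie below 0 on both.

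Mitochondrial DNA, which is present in many copies per cell and is counted in the same table, had more signal in heart. Of its 15 genes 7 were called higher and none lower, against 3.29% and 8.76% of all tested genes. The median over the 15 was 1.26. Taken between the frozen libraries alone it reached 2.18, and between the FFPE libraries 0.35. COX1 (-0.02), COX3 (-0.20), mt-Rnr1 (-0.05) and mt-Rnr2 (-0.19) were lower in FFPE heart than in FFPE liver, and the rest were higher. All 15 genes were higher in frozen heart than in frozen liver. These genes took 7.24% of the reads in frozen heart (95% Clopper-Pearson interval 7.21 to 7.27), 2.72% in FFPE heart (2.70 to 2.74), 1.35% in frozen liver (1.34 to 1.36) and 1.64% in FFPE liver (1.62 to 1.65). Both heart shares were above both liver shares, and frozen heart stood far above the other 3. ND2, a subunit of respiratory complex I, had 12739 CPM in frozen heart, 4655 in FFPE heart, 2197 in frozen liver and 2996 in FFPE liver (1.59 ± 0.40 SE, limma adjusted p = 0.0153). The call of ND2, chosen after its values were seen, was lost without FFPE heart (adjusted p = 0.113), frozen heart (0.223) or frozen liver (0.359). Frozen brain also had a high share, 8.66%, against 1.76% in FFPE brain. The intervals cover counting error only. The number of mitochondrial DNA copies and their 5mC cannot be told apart without Input DNA, which was not analysed here.

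**Figure D5:**
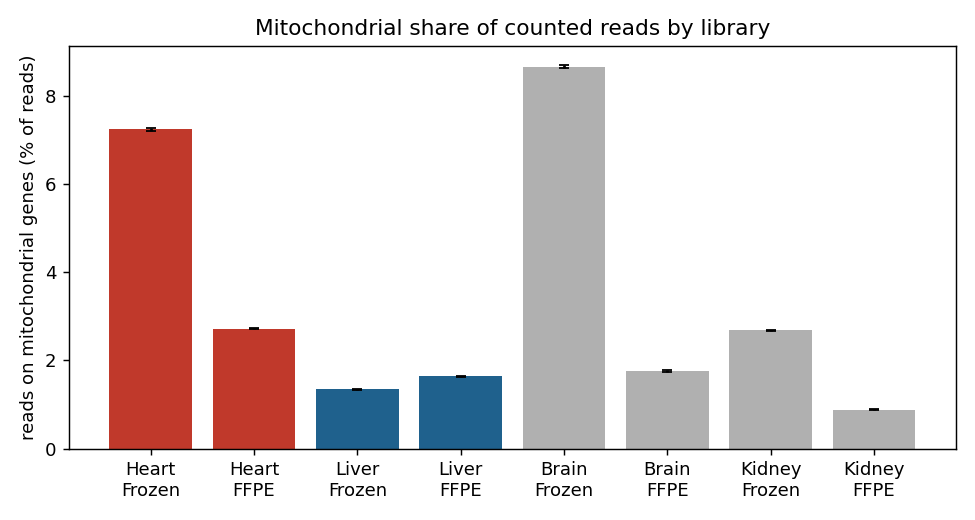
Percent of counted reads on 15 mitochondrial genes in each library (heart red, liver blue, brain and kidney grey), bars with 95% Clopper-Pearson intervals. Frozen heart has 7.24% and frozen liver 1.35%, and the FFPE libraries have 0.885% to 2.72%.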

How the data were processed

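MeDIP-seq samples of brain, heart, kidney and liver, frozen and FFPE, are listed as 32 samples in 16 groups of 2 (16 with the 5mC antibody and 16 Input). Per the submitters' processing notes, reads were aligned to mm10 with Bowtie2, counted with featureCounts and processed with limma. No source names versions, the counted feature or strand handling. The authors deposited log2 CPM values for 27179 genes in 8 columns, which step as counts plus 0.5 do, so that 100% of values gave whole reads at a tolerance of 1e-04. These reads served for depth, limits of 3 reads and weights only, and CPM in the text is 2 to the power of the deposited log2 value. Nothing says that replicates were separate animals, so p-values measure only the spread between these libraries.

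limma 3.58.1 (R 4.3.3) fitted organ plus preservation to the 25982 genes kept (1197 removed), with 3 residual and 13.1 prior degrees of freedom and a two-sided moderated test with a variance trend, adjusted by Benjamini-Hochberg at 0.05. The fit was also run on simulated counts with the same added scatter in all libraries and no preservation effect. That run therefore does not check the calls in these data. Alternatives were other scalings, filters, offsets, weights, designs, no trend and each library left out, which leaves a heart or liver arm with 1 library assumed to vary like the others.

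Genes were placed by Entrez ID on RefSeq GRCm38.p6 (25275 of 27179, 93.0%). Named genes were the 15 largest differences in each direction (called, no overlap, mean signal not under the median), the called members of lowest p in each of 26 lists (4 at most), and Alb, Myh6, Gata4, Nkx2-5 and Hnf4a. Others are said to be chosen after their values were seen. The members and lists were chosen with earlier results of these data known. Of the genes this rule names, some are not reported here.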

Additional observations from a re-analysis of the deposited data

Results flagged for a closer look

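At 3 gene lists the median difference of heart minus liver lay on opposite sides of 0 in frozen and FFPE tissue, and the difference between the preservations was not tested. The median of the 24 fibroblast and smooth muscle genes was 0.03 in frozen (0.0262) and -0.0608 in FFPE tissue, both near 0. That of the 38 Hox cluster genes was 0.265 in frozen and -0.0945 in FFPE tissue. That of the 81 ribosomal protein genes was 0.5246 in frozen and -0.0518 in FFPE tissue.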

How the results depend on the processing

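No paired analysis was possible because the columns carry no replicate number. The genes called higher in heart (856) numbered 527 after median centring, 2168 with heart and liver libraries only, 2259 without both kidney libraries, 1951 with array quality weights, 440 without a preservation term and 0 without a variance trend, and 54 to 2213 with 1 library left out. Those called lower (2277) numbered 888 after quantile normalization, 3683 after centring, 3564 with heart and liver only and 0 without the trend, and 569 to 3202 with 1 library left out. Of the genes called higher, 365 (42.6%) kept their call after quantile normalization, and of those called lower 870 (38.2%). After quantile normalization 6 sarcomere, 7 imprinted and 30 Zfp genes were called lower and 9 plasma protein genes higher. Without a preservation term 7 sarcomere genes were, and the calls of Gab2, Ttn, Myl7, Pltp, Hnf4a, Tet3, Tet1, Vmn2r29, Txnrd2 and ND2 were lost. Without the trend each of these lists, and the germline list, had 0. With 1 library left out the sarcomere list had 3 to 16 lower calls, plasma proteins 3 to 19 higher calls, imprinted genes 7 to 18, germline genes 4 to 17 and Zfp genes 36 to 87 lower calls. Quantile normalization reversed Tet3 (0.12) and Tet1 (0.13). No other value of the 113 named called genes reversed under any alternative. The fit without the trend has 1.88 prior degrees of freedom, and the other causes were not tested. The 30 largest differences kept their call in all but 1 gene under quantile normalization, in 22 and 25 genes without FFPE and frozen heart, and in 23 without FFPE liver. A count of 0 allows up to 3 reads, or 0.876 to 1.19 CPM in heart and liver libraries, so differences at lower levels were not detectable.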

Other observations

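Some of the largest differences lay at genes with few reads, below the signal level of the named genes, and were chosen after their values were seen. Id2, an inhibitor of helix-loop-helix transcription factors, had 20 reads in frozen heart, 36 in FFPE heart and 0 in both liver libraries (limma adjusted p = 0.00321). With 3 reads put in for each liver count of 0 and the heart counts taken as exact, heart was 10.0-fold higher. The call of Id2 was lost without FFPE heart. Frozen and FFPE brain had 41 and 27 reads there, frozen kidney 10 and FFPE kidney 0. Actb, cytoplasmic actin, had 6 reads in frozen heart, 0 in FFPE heart and 70 and 78 in liver (-5.20 ± 1.06 SE, limma adjusted p = 0.00448, and 0.131 and 0.13 without FFPE heart and FFPE liver), with 4 to 13 reads in brain and kidney.

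Called genes often had a neighbour called in the same direction, 11.5% of genes called higher against 6.32% of all placed genes, and 25.9% of those called lower against 16.9%. The 1 stretch of 4 neighbours called higher was Txnrd2, Gnb1l, Tbx1 and 4930588K23Rik (chr16:18426417-18609745), around Tbx1, a transcription factor of the pharyngeal arches and outflow tract. Tbx1 had 13.5 and 10.1 CPM in frozen and FFPE heart and 1.90 and 0.947 CPM in liver, on 6 and 2 liver reads, and brain and kidney had 12 to 49 reads. Its difference was 3.12 ± 0.67 (SE, limma adjusted p = 0.00623), and without FFPE heart, frozen heart and FFPE liver the adjusted p was 0.135, 0.0968 and 0.0537. Of 8 stretches of 4 called lower, 1 held the keratins Krt26, Krt27, Krt28 and Krt10 and 1 the genes Zfp579, Fiz1, Zfp524 and Zfp865, and the others ran from D630029K05Rik to Gm10747, Plec to Spatc1, Letmd1 to Pou6f1, Tanc1 to Gm13570, Tnrc18 to Fscn1 and Ttc21a to Cx3cr1. These genes were chosen after their values were seen, and overlapping or adjacent genes may share reads.

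By chromosome, the share of genes called lower in heart was highest on chromosome 10, at 14.0% of 1121 genes, against 8.76% of all tested genes. It was lowest among nuclear chromosomes other than Y on X, at 4.76% of 1092 genes. The median log2 CPM of X genes was 2.55 to 3.04 in the heart and liver libraries, against 4.08 to 4.31 over all tested genes. In the signal groups from 1.99 to 2.91 and 2.91 to 3.63, 0.231% and 0.577% were called lower. The part of signal level in the X share was not tested.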
